A study of Mus musculus with 5 samples.

Results

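The clustered replication-dependent histone genes were taken as all genes whose GRCm38 symbol starts with Hist1h, Hist2h, Hist3h or Hist4h. The annotation lists 70 of them, and 61 had at least 1 read in some library, out of 27363 genes with reads among the 55487 counted. Of these 61, 3 are annotated as pseudogenes (Hist1h2aj, Hist1h2al and Hist3h2bb-ps) and are counted under the class and cluster of their symbol. The reads come from HT22 cells, a line derived from mouse hippocampus, collected 48 h after transfection with 10 nM of siRNA. GAS5 siRNA210 has 1 library and GAS5 siRNA596 has 2, and these form the knockdown (KD) group. The negative control siRNA (NC) has 2 libraries, which one label field calls untreated while the sample titles and the study's methods give NC siRNA. All 5 libraries are unsorted cultures of 1 line, so a change in the share of cells that replicate DNA and a change in RNA per cell cannot be told apart. The labels do not say whether replicates were separate cultures, and the P values measure the spread between these libraries.

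These genes, apart from the pseudogenes, encode the core histones and the linker histone H1. The core histones H2A, H2B, H3 and H4 wrap DNA into nucleosomes, and H1 binds the DNA between them. The genes are transcribed mainly in S phase, when new chromatin is assembled. Their messages are unusual in that most end not in a poly(A) tail but in a conserved stem-loop. The stem-loop binding protein SLBP holds it, and the U7 snRNP directs a cut just after it. Some histone genes also have a polyadenylation site further downstream, and transcripts that run on to that site carry a poly(A) tail. The libraries here were selected on poly(A) with oligo(dT), so the reads below are those of histone transcripts that passed this selection.

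The stem-loop was searched in the annotated transcripts in the forms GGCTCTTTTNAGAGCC and GGCCCTTTTNAGGGCC, with 1 mismatch allowed. It was found after the stop codon in 44 of the 70 histone genes (62.9%), against 14 of 21884 other coding genes (0.064%) searched over their whole transcripts, of which H2afx is 1. It begins between 22 and 59 bases after the stop codon, with a median of 32. The 10 H4 genes with a match hold the second form, and the 34 matches in the other classes hold the first. Another 16 histone genes have no annotated 3′ untranslated bases at all, and none of these has a match. Among the 16 are the 3 pseudogenes, which have no annotated coding part. The stem-loops of the genes that carry most reads and of those that pass the criteria further on are shown here, 5′ to 3′ on the strand of the gene in GRCm38, with the stem-loop in capitals and 5 bases on either side.
Hist1h1c (chr13:23739512-23739527, plus strand): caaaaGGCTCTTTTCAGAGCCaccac
Hist1h4i (chr13:22040966-22040981, minus strand): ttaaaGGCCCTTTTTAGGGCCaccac
Hist1h2bj (chr13:22043638-22043653, plus strand): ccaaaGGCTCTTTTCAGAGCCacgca
Hist1h4d (chr13:23581950-23581965, plus strand): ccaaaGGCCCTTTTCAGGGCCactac
Hist1h3f (chr13:23544932-23544947, plus strand): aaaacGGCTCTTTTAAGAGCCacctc
Hist4h4 (chr6:136803998-136804013, minus strand): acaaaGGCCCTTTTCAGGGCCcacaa
The coordinates give the 16 bases in capitals. The annotated transcripts do not stop there. They run on by 840 bases in Hist1h1c, 330 in Hist1h4i, 770 in Hist1h4d, 365 in Hist1h3f and 2445 in Hist4h4, but by 23 in Hist1h2bj. Hist1h3h, which also passes the criteria, is annotated as its coding part with no bases in which a stem-loop could be found.

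The total counts of the 5 libraries ran from 30660265 to 36492134. Gas5, the targeted RNA, had 3178 and 2916 counts with NC, 2134 with siRNA210 and 2357 with siRNA596 replicate 1, but 4727 in the library labelled siRNA596 replicate 2, which goes against its label. That library also stood apart over all genes. Of 15412 genes with a mean count of at least 10, it was past 2-fold above the mean of the other 4 libraries for 16.8% and past 2-fold below it for 22.0%. The mean column of the authors' table of the comparison was matched within 0.0977% by the other 4 libraries. Results are therefore given for those 4 libraries (2 KD and 2 NC) and again for all 5 (3 KD and 2 NC). Of 6 neuronal markers, Snap25 and Rbfox3 had at most 2 counts in any library and Syt1 at most 6, while Slc17a7 had 44 to 133, Tubb3 497 to 970 and Map2 833 to 3336. Of 3 progenitor markers, Vim had at least 97781 and Nes at least 12449, and Sox2 was at 0 in every library.

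Histone reads were few and were held by a few genes. Over the 5 libraries, 67.3% of the reads on the 61 genes fell on 3 of them, Hist1h4i, Hist1h1c and Hist1h2bc, the only members with a mean count of 100 or more. A further 28 had a mean count from 10 to under 100 and together held 28.1%. The 24 from 1 to under 10 held 4.41%, and the 6 under 1 held 0.174%. In 8 members no library had more than 3 counts, which was taken as the floor for reading a level.

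Hist1h4i, which encodes H4 (chr13:22040636-22041362), gave counts of 579 and 680 for NC, 615 for siRNA210, 696 for siRNA596 replicate 1 and 1432 for siRNA596 replicate 2. Hist1h1c, a linker histone gene (chr13:23738808-23740367), had 464, 468, 488, 474 and 1186 in the same order. The first 4 libraries lie close together for both genes, and the last is higher by more than 2-fold. Levels per kb of exon are given as TMM-normalised CPM (counts scaled to a library of 1000000 reads). The mean over all 5 libraries was 34.4 for Hist1h4i and 12.5 for Hist1h1c. Both means are raised by siRNA596 replicate 2, at 74.6 and 28.8. The other libraries ran from 22.6 to 26.8 for Hist1h4i and from 7.82 to 8.74 for Hist1h1c. By the mean over all 5, Hist1h4i was above 88.9% and Hist1h1c above 70.4% of 15390 genes with a mean count of at least 10. The median level of those genes was 5.18 CPM per kb. The next member, Hist1h2bc, was at 3.40 CPM per kb, above 41.4% of those genes. The median over all 61 members was 0.348 CPM per kb.

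By class, the 13 H4 genes held 42.2% of all histone reads and the 5 H1 genes held 29.9%. The 17 H2B genes held 14.2%, the 10 H3 genes 7.74% and the 16 H2A genes 5.95%. The H4 and H1 sums rest on 1 gene each. H2A was led by Hist1h2ae with 38 and 30 counts in NC, 36 with siRNA210, 62 and 102 with siRNA596. H2B was led by Hist1h2bc (113, 86, 124, 113 and 200 in the same order), and H3 by Hist1h3c (31, 28, 20, 36 and 99). The last library was the highest for all 5 class leaders. The other members among the 12 with the most reads were Hist2h2be, Hist1h3g, Hist3h2a, Hist1h4k, Hist1h2bj, Hist1h1e and Hist1h4j, with 12 to 68 counts in any library.

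By cluster, the 53 members with a Hist1 symbol, all on chromosome 13, held 94.3% of histone reads. Among them the pseudogene Hist1h2al (chr13:51202727-51203065) lies far from the others. The 4 of the Hist2 cluster held 3.32%, led by Hist2h2be with 52, 51, 49, 30 and 68 counts. Hist3h2a, with 29, 14, 29, 45 and 49 counts, led the 3 of the Hist3 cluster. Part of its exons lies on those of Trim17 on the same strand, so the source of its reads is uncertain. Hist4h4, the single gene of the Hist4 cluster, had 16 and 6 counts in NC, 2 with siRNA210, 14 with siRNA596 replicate 1 and 56 with siRNA596 replicate 2. Its NC libraries thus differed from each other by more than 2-fold.

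Histone genes are near copies of each other, so the share of each gene's 50-base windows that also occur in the transcripts of another gene was computed. This share counts matches on either strand and also in genes whose exons overlap the member, as they do for 19 members. Its median over the 61 members was 49.7%, and 30 members had more than 50% of their windows shared. Those 30 held 10.5% of the histone reads. Their median mean count was 3.50, against 16.6 for the other 31. Sharing is not only with other histones. Hist1h2bc has 30.6% of its windows in other genes, which number 220 and include Cbl and Dvl3. The source of reads on those windows is uncertain. How the authors' counting treated reads that fit several places is not given in the sources used here. All 9 genes of the annotation without a read can be named: Hist2h2aa1, Hist2h2aa2, Hist2h2bb, Hist2h3b and Hist2h3c1 have every window in another gene, which no member with reads has, and Hist1h1t, Hist1h2aa, Hist1h2ba and Hist2h2ab do not. For Hist2h2bb the other genes are only Gm20628 and Gm42743, whose annotated exons overlap its own. Hist1h1t, Hist1h2ba and Hist1h2aa are known as testis genes.

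**Figure D1:**
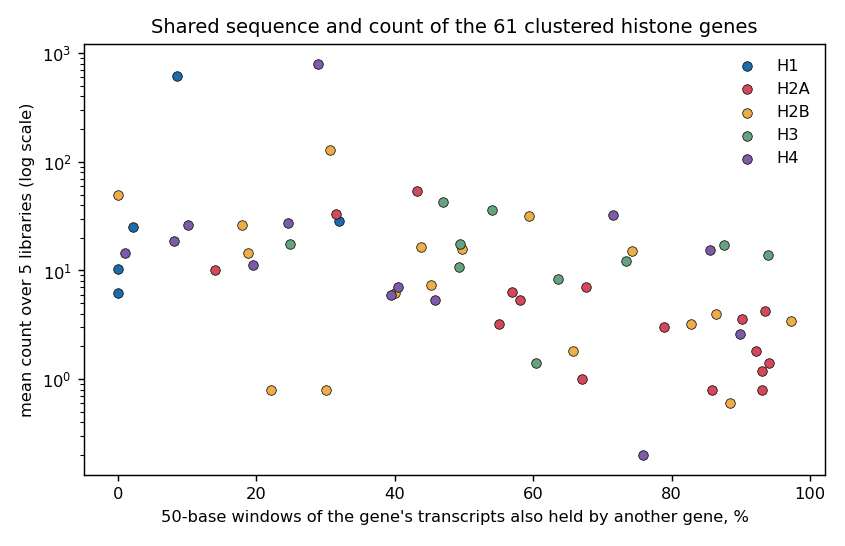
Each point is 1 of the 61 clustered histone genes, coloured by class, with the percentage of its 50-base windows held by another gene on the x axis and its mean count over 5 libraries on a log y axis. No gene past 50% shared windows has a mean count above 36.2, while the 3 genes with 100 or more counts are all under 31%.

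The annotated 3′ end also varied with the level. The 20 members whose transcript runs more than 100 bases past the stem-loop held 76.3% of histone reads. The 20 that end within 100 bases of it held 9.76%. Members without a stem-loop match held 4.54% where the annotation has at most 2 bases after the stop codon or no coding part (14 genes). They held 9.38% where it has more (7 genes). The 14 include the 3 pseudogenes. The transcripts of these sets differ in length, with a median of 1255 exon bases in the first set, 484 in the second, 393 in the third and 1156 in the fourth. Per kb the medians were closer, at 0.422, 0.351, 0.307 and 0.261 CPM per kb, and the 2 genes with the highest levels are both in the first set.

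The comparison of KD with NC asked whether the messages of these genes differ after the siRNAs against GAS5. Summed over all 61 members, NC reached 49.8 and 47.1 CPM, siRNA210 reached 51.9 and siRNA596 replicate 1 reached 54.8. Both KD sums lie above both NC sums, by a ratio of means of 1.10 (53.3 ± 2.01 against 48.4 ± 1.95, SD, n = 2 each), and an exact 2-sided permutation test with 2 libraries a side cannot give less than p = 0.333. The library labelled siRNA596 replicate 2 was at 155 CPM. With 4 libraries the ratio of means was 1.07 for H1, 1.23 for H2A, 1.06 for H2B, 1.27 for H3 and 1.09 for H4. The sums of H1, H3 and H4 did not overlap between KD and NC, those of H2A and H2B did. For H1 the KD libraries were both at 15.1 CPM and the NC libraries at 15.0 and 13.4. Among all single genes tested, both KD values lay above both NC values in 16.7% and below both in 16.2%.

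**Figure D2:**
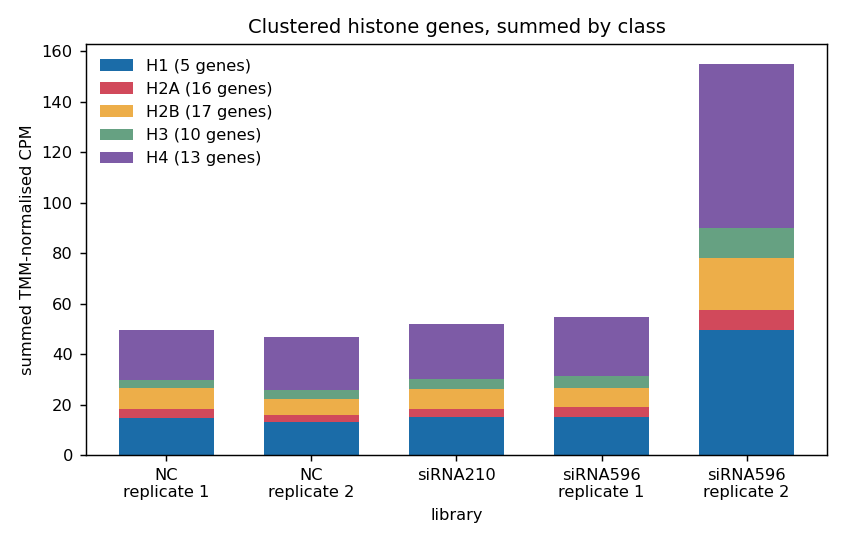
Stacked bars give the summed TMM-normalised CPM of the members of each histone class in each of the 5 libraries, 1 bar a library with no error bar. The bars of NC and of the first KD libraries reach 47.1 to 54.8 CPM, and that of siRNA596 replicate 2 reaches 155 CPM with each class larger.

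Gene by gene, 27 members passed the filter on low counts with 4 libraries. Of these, 3 were higher in KD by the study's criteria of an unadjusted P value under 0.05 and more than a 2-fold change, and 0 were lower. Over all 15867 genes tested, 0.366% were higher and 0.510% were lower. None of the genes tested passed an adjusted P of 0.05 in edgeR, although 523 had an unadjusted P under 0.05 (3.30%), and DESeq2 passed 1 gene, which was no member. The 3 members are also among the changed genes that the study took from these libraries for its own term analysis, so their count is not independent evidence of a direction. The median log2 fold change of the 27 was 0.16, against -0.0023 over all genes tested, and 19 of them (70.4%) were above 0 against 49.5% of all genes. Among the 27, Hist1h3h and Hist2h3c2 had at most 6 counts in NC and passed the filter through the KD libraries. Their sign is thus set in part by the filter.

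Hist1h2bj, which encodes an H2B (chr13:22043214-22043676), gave counts of 12 and 14 for NC, 39 for siRNA210, and 37 and 57 for siRNA596 replicates 1 and 2. Every KD library was above both NC libraries. In CPM this was 0.353 ± 0.017 for NC and 1.06 ± 0.040 for the first 2 KD libraries (SD, n = 2 each). On the log2 scale KD was higher by 1.58 with a standard error of 0.51 (edgeR's quasi-likelihood test, adjusted P = 0.967).

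Hist1h4d, which encodes H4 (chr13:23581598-23582735), gave counts of 10 and 16 for NC, 46 for siRNA210, and 27 and 33 for siRNA596 replicates 1 and 2. The KD libraries again lay above both of NC but differed among themselves, at 1.02 ± 0.38 CPM against 0.351 ± 0.094 (SD, n = 2 each). KD was higher by 1.52 on the log2 scale, with a standard error of 0.56 (edgeR, adjusted P = 0.967). Only 10.2% of its 50-base windows occur in another gene.

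Hist1h3h, which encodes an H3 (chr13:21717659-21718069), gave counts of 6 and 4 for NC, 18 for siRNA210, and 26 and 16 for siRNA596 replicates 1 and 2. KD and NC did not overlap. The log2 difference was 2.14, with a standard error of 0.69 (edgeR, adjusted P = 0.967). Of its 50-base windows 93.9% occur in other genes, against 59.4% for Hist1h2bj, so which H3 gene its reads came from is uncertain.

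The calls of these 3 genes each depended on single libraries. Without the siRNA210 library Hist1h3h alone was called, and without siRNA596 replicate 1 Hist1h4d alone. Without NC replicate 1 the call of Hist1h4d was lost and without NC replicate 2 that of Hist1h3h. The fold changes stayed above 1 on the log2 scale in all of these fits, each of which has 1 library on a side and takes its spread from the other side.

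**Figure D3:**
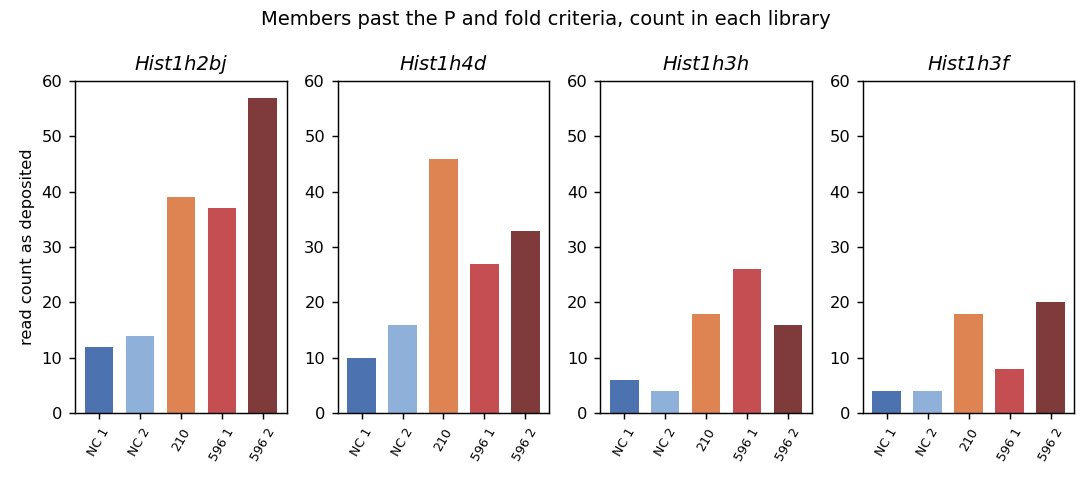
Bars give the deposited read count of Hist1h2bj, Hist1h4d, Hist1h3h and Hist1h3f in each of the 5 libraries (NC 1 and NC 2, siRNA210, siRNA596 replicates 1 and 2), with the same axis from 0 in each panel. NC counts run from 4 to 16 and KD counts from 8 to 57.

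With all 5 libraries 34 members were tested. The same 3 genes were higher and Hist1h3f made 4, with 0 lower, where 0.180% of 16142 genes were higher and 0.173% lower. None of the genes tested passed an adjusted P of 0.05 in edgeR or DESeq2, and 60 had an unadjusted P under 0.05 in edgeR and 87 in DESeq2. The log2 fold changes were 2.00 for Hist1h2bj (standard error 0.58), 1.63 for Hist1h4d (0.56) and 2.13 for Hist1h3h (0.65), each with an adjusted P of 0.963 from edgeR. Hist1h3f, an H3 gene (chr13:23544052-23545312), had 4 and 4 counts in NC, 18 with siRNA210, 8 and 20 with siRNA596. The log2 difference was 2.14, with a standard error of 0.83 (edgeR, adjusted P = 0.963). With 4 libraries it did not pass the filter. Hist1h3f and Hist1h3h had at most 6 counts in NC and passed the filter, which asks for about 10 counts, through the KD libraries, so a member at their NC level in all libraries could not have been tested. Without NC replicate 1, or without NC replicate 2, 0 members were called in edgeR and 0 had an unadjusted P under 0.05, and without the siRNA210 library Hist1h2bj and Hist1h3h were called.

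The median log2 fold change of the 34 members with all 5 libraries was 1.01, against 0.011 over all genes, and 31 of 34 were above 0 (91.2%, against 51.0% of all genes). Some of the 34, such as Hist1h4c, Hist1h3e and Hist1h3f, passed the filter only with siRNA596 replicate 2, where their counts were highest. Their sign is thus set in part by the filter, and this median and share rest in part on them. Leaving out siRNA596 replicate 2 moves this median to 0.16 over 27 members. The members with most reads show the same. Hist1h4i was at 0.10 with 4 libraries (standard error 0.13) and 0.82 with all 5 (0.55), Hist1h1c at 0.081 (0.14) and 0.91 (0.61), and Hist1h2bc at 0.28 (0.29) and 0.79 (0.51). None of these passed the criteria. Hist1h1e, a linker histone gene, had 12 and 19 counts in NC, 26 with siRNA210, 37 and 49 with siRNA596. Its log2 fold change of 1.06 (standard error 0.54) and, with all 5, 1.51 (0.63) did not pass edgeR's unadjusted P. It was called with a minimum of 10 counts in every library, with 4 libraries and with all 5, and with all 5 also by DESeq2 and with no filter. Its exons overlap those of Hist1h2be on the same strand.

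**Figure D4:**
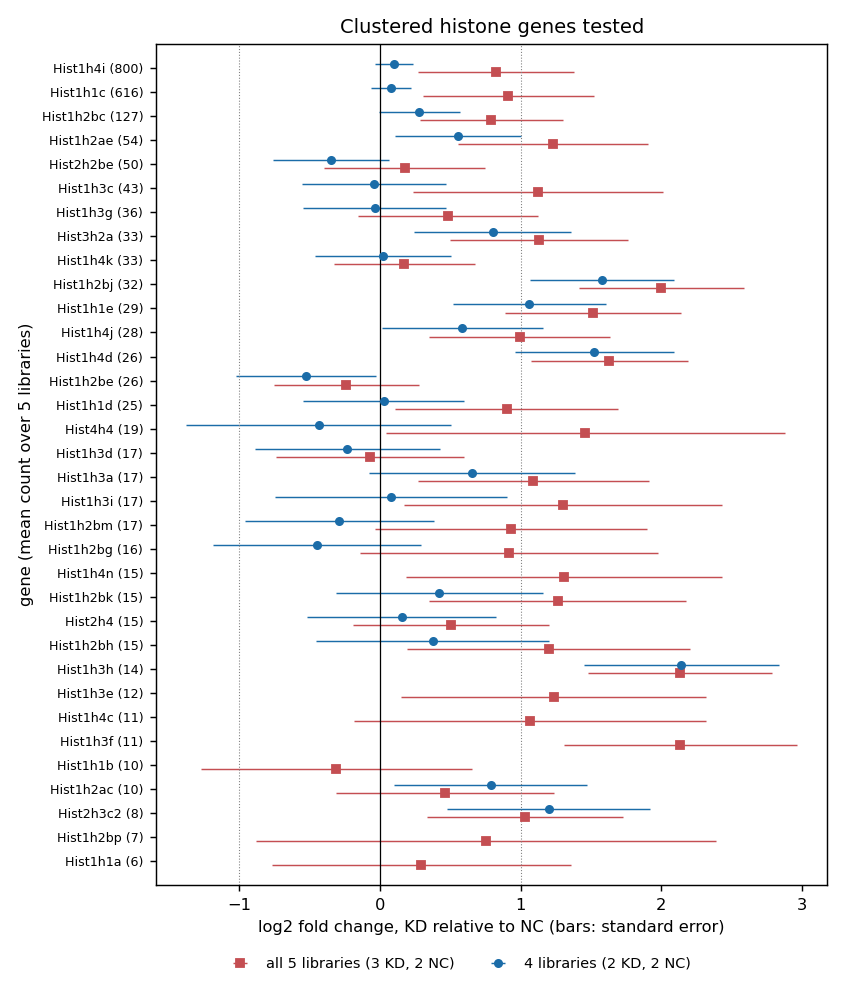
Points give the edgeR log2 fold change of KD relative to NC with its standard error for each member tested, with 4 libraries (circles) and all 5 (squares), ordered by mean count over 5 libraries. In 24 of the 27 members with both values the square lies to the right of the circle. The median is 0.16 over the 27 members tested with 4 libraries and 1.01 over the 34 tested with all 5.

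With 4 libraries both KD values lay above both NC values in 7 of the 27 members tested (25.9%), against 16.7% of all genes, and below both in 1 (Hist1h2be), against 16.2% of all genes. With all 5 libraries every KD value was above both NC values in 7 of 34 members (20.6%), against 8.30% of all genes, and below both in 0, against 9.48%. Hist1h1c, Hist1h1e, Hist1h2bj, Hist1h3h, Hist1h4d and Hist2h3c2 were among the 7 both times. With all 5 libraries the other was Hist1h3f, which passed the filter only with siRNA596 replicate 2. Hist1h3h and Hist2h3c2, with at most 6 counts in NC, passed it through the KD libraries both times. The place of these genes above NC is thus set in part by the filter, and both shares rest in part on them. The spread within NC was also wide for small counts. The CPM of the NC libraries differed by more than 2-fold in 7 of the 27 members and in 8.21% of all genes tested, and after adding 0.1 CPM to each value in 3 members and in 5.84% of all genes. Of the gene counts from 1 to 20, the median library had 65.9% even numbers. For the histone genes alone the share ran from 64.1% in siRNA596 replicate 1 to 69.6% in NC replicate 1. Its part in the differences above was not tested. The sources used here do not say whether mates of a read pair were counted apart, in which case a count stands for fewer fragments than its number.

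The largest difference among these libraries was that of siRNA596 replicate 2 from the other 4. Its summed histone level was 3.05 times the mean of the others, which themselves ran from 47.1 to 54.8 CPM. By class the ratio was 3.39 for H1, 2.33 for H2A, 2.79 for H2B, 2.94 for H3 and 3.04 for H4. The sum over the 59 members without Hist1h4i and Hist1h1c was 2.79 times that of the others. Of the 31 members with a mean count of at least 10, 24 were past 2-fold higher and 1 was past 2-fold lower, with a median ratio of 3.05. With 1 library there is no replicate check on this difference and no test was made.

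Among these 31, the 5 members with the highest ratios were Hist4h4 (8.01), Hist1h4c (6.78), Hist1h4n (5.56), Hist1h3e (5.37) and Hist1h3i (5.29), of which 3 encode H4 and 2 encode H3. Hist1h4c had 10, 6, 6 and 3 counts in the first 4 libraries and 31 in the last. Hist1h4n had 15, 4, 10 and 9 against 39, Hist1h3e 4, 12, 9 and 6 against 30, and Hist1h3i 17, 4, 8 and 14 against 42. In each the last library was above all others, which in CPM follows from the choice, as a ratio above 4 to the mean of 4 libraries requires it. The single member past 2-fold lower among the 31 was Hist1h2ac, an H2A gene with 11, 6, 14 and 15 counts against 4, a ratio of 0.474. The called members Hist1h3h and Hist1h4d were at 1.61 and 1.82, below the median ratio, and Hist1h2bj was at 3.05.

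The ratio in that library also moved with transcript length across all genes. Across 15390 genes Spearman's rho between the ratio and the longest annotated transcript was -0.496, a correlation across genes of 1 library, while it lay between 0.357 and 0.404 when each of the other 4 libraries was set against the mean of the rest, a mean that then holds siRNA596 replicate 2. Of 495 other protein-coding genes with a longest transcript under 1000 bases, 70.9% were past 2-fold higher, with a median ratio of 2.73. Of the 17 members under 1000 bases, 15 were (88.2%), with a median ratio of 3.36. At 1000 bases or more, 12.5% of 11898 other coding genes were past 2-fold higher, with a median ratio of 0.944, against 9 of 14 members (64.3%) and a median ratio of 2.39. The longer group is itself uneven. From 1000 to under 2000 bases, where 8 of the 14 members lie, 39.5% of other coding genes were past 2-fold higher with a median ratio of 1.79, against 62.5% and 2.68 for the members. From 2000 to under 4000 bases the median ratios were 1.10 for other coding genes and 2.05 for the 5 members. The part of length in the difference was not tested.

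**Figure D5:**
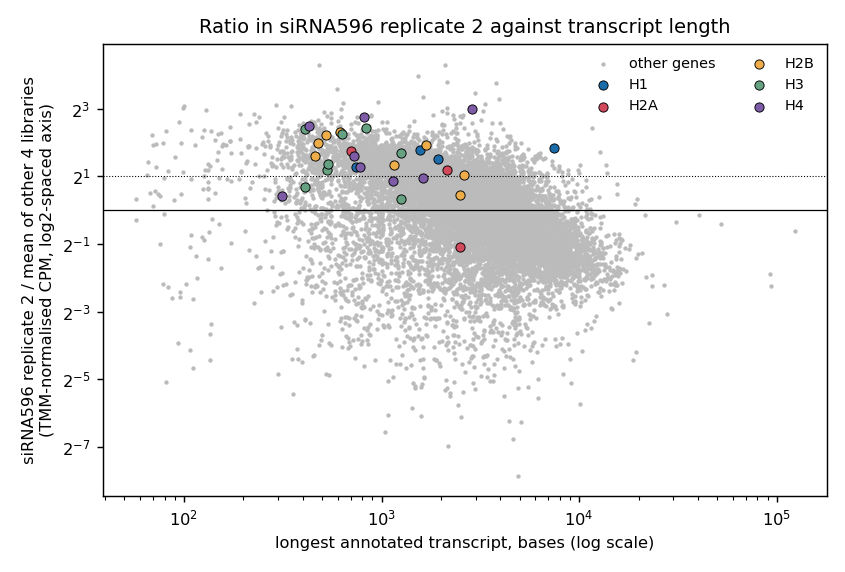
Each point is a gene with a mean count of at least 10, with its longest annotated transcript on a log x axis and, on a log2-spaced y axis, the ratio of its TMM-normalised CPM in siRNA596 replicate 2 to the mean of the other 4 libraries; members are coloured by class and genes with a ratio of 0 are not drawn. The cloud of other genes falls with length, and 24 of the 31 members lie above the dotted line at 2.

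By annotated 3′ end, the summed ratio in siRNA596 replicate 2 was 3.16 for members that run more than 100 bases past the stem-loop and 3.32 for those that end within 100 bases of it. It was 2.16 for members without a match and at most 2 bases after the stop codon, and 2.41 for the other members without a match. The 2 sets with a stem-loop were thus close to each other. With 4 libraries the median log2 fold change of the tested members was 0.16 in the first set (15 genes) and 0.19 in the second (6 genes).

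Many H2A and H2B genes are arranged head to head and share the DNA between their starts. The annotation holds 14 such pairs with 172 to 305 bases between their genes. Hist1h2aj and Hist3h2bb-ps, the partners of Hist1h2bm and Hist3h2a, are pseudogenes. In some pairs the mean counts were far apart and in others close. Hist1h2bc had a mean count of 127 and its partner Hist1h2ac had 10.0. Hist2h2ac had a mean count of 3.20 beside the counts of Hist2h2be given above. Hist1h2bj had 31.8, while its partner Hist1h2ag had 2 and 4 counts in NC, 3 with siRNA210, 6 and 0 with siRNA596 and was not tested. Hist1h2ak and Hist1h2bn were closer, at 6.4 and 4.0, as were Hist1h2bl and Hist1h2ai, at 3.20 and 3.60. The H2B gene had more reads in 7 pairs and the H2A gene in 6, and 1 pair had none.

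Promoters from RefSeq on GRCm38.p6, each 250 bases before to 50 after the start, were matched to 52 of the 61 members. They were searched on both strands for the TATA box as TATAAA, the binding site of NF-Y as CCAAT, and the octamer ATTTGCAT, which is known from H2B promoters. TATAAA was in 57.7% of the member promoters and in 13.6% of all 32851 promoters. CCAAT was in 82.7%, against 37.4% of all. It was in all 40 promoters of the H1, H2A, H2B and H3 genes but in 3 of 12 of H4. The octamer was in 6 of 14 H2A and 4 of 14 H2B promoters and in 0 of 24 of the other classes, against 1.74% of all promoters. The windows of head-to-head H2A and H2B partners can overlap, as those of Hist1h2ae and Hist1h2bg do. A single match can thus count in both classes, and these promoters are not all separate sequences. Among the members higher in KD, the promoter of Hist1h2bj on the side of its partner Hist1h2ag is shown because it holds 5 CCAAT matches and none of the others, and that of Hist1h4d because it is 1 of the 3 H4 promoters with CCAAT. Matches are in capitals, on the strand of the gene, where ATTGG is CCAAT on the other strand.
Hist1h2bj (chr13:22042948-22043247, plus strand): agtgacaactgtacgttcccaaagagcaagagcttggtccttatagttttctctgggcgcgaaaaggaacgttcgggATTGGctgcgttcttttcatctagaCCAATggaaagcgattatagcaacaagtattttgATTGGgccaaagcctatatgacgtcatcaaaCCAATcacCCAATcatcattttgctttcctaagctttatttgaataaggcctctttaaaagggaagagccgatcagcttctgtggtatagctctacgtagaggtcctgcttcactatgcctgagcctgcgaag
Hist1h4d (chr13:23581318-23581617, plus strand): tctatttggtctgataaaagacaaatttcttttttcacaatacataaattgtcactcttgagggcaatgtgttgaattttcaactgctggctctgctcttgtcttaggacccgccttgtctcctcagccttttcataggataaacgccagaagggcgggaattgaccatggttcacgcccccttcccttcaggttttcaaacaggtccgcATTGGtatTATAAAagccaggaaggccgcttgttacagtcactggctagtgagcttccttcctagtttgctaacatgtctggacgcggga
A match describes the letters in this window and nothing about binding in these cells.

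The genes around the histones were read from fixed lists. None of the 11 genes of histone variants outside the clusters passed the criteria with 4 or with 5 libraries, and 0 had an unadjusted P under 0.05 in edgeR. H3f3b, which encodes the variant H3.3, had 37948 and 38936 counts in NC, 37887 with siRNA210, 38076 and 50803 with siRNA596, a log2 fold change of 0.018 (standard error 0.077) with 4 libraries. H2afz, which encodes H2A.Z, was at 0.036 (0.077), and H2afx, which encodes the H2A variant phosphorylated at DNA breaks and carries the stem-loop, at 0.041 (0.11). With all 5 libraries they were at 0.37 (0.35), 0.41 (0.36) and 0.86 (0.60). In siRNA596 replicate 2 the median ratio of the 11 was 1.83, and H2afx was at 3.32.

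Of the 14 factors for transcription, 3′ end formation and decay of histone mRNA, 0 passed the criteria and 0 had an unadjusted P under 0.05 in edgeR with 4 or 5 libraries. Slbp, which encodes the stem-loop binding protein, had 5369 and 5274 counts in NC, 5489 with siRNA210, 5468 and 3280 with siRNA596. Its log2 fold change was 0.076 (standard error 0.084) with 4 libraries and -0.016 (0.21) with all 5. Npat, the activator of histone gene transcription, had 2353, 2554, 2299, 2128 and 707 counts in the same order, at -0.11 (0.088) and -0.41 (0.40). In siRNA596 replicate 2 the ratios of Slbp and Npat to the other libraries were 0.833 and 0.416, and the median of the 14 was 1.06. The ratio of the summed histones was 3.05. In that library the ratio fell with transcript length over all genes. Other coding genes had a median ratio of 2.73 under 1000 bases and 0.609 at 4000 bases or more. The part of length in this contrast was not tested.

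None of the 20 histone chaperones and none of the 10 genes of S phase entry passed the criteria with 4 or with 5 libraries. With 4 libraries 1 of each list had an unadjusted P under 0.05 in edgeR. These were Supt16, a subunit of the FACT chaperone, at -0.24 (standard error 0.096, adjusted P = 0.967 from edgeR) and Ccne1, which encodes cyclin E1, at -0.34 (0.15, adjusted P = 0.967 from edgeR), and both were named after their values were seen. With all 5 libraries 0 of the 30 did. The median log2 fold changes were -0.012 for the chaperones and 0.015 for S phase entry with 4 libraries, and 0.12 and 0.080 with all 5. Other RNAs made without a poly(A) tail were low. Rn7sk had 20, 33, 40, 32 and 44 counts and Rny1 4 to 10, and Rmrp, Rpph1, Terc and Rny3 were at 0. The small nucleolar RNA genes, summed, were at 44.1 to 47.3 CPM in the first 4 libraries and 72.4 in siRNA596 replicate 2, and the small nuclear RNA genes at 14.6 to 17.9 and 13.2.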

How the data were processed

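Poly(A) RNA of 5 HT22 libraries was sequenced. The counts deposited by the authors are whole reads per gene, not normalized. Per the submitters' processing notes they were made with HISAT2 2.1.0 on GRCm38, SAMtools 1.7 and featureCounts 2.0.1, with DESeq2 1.26.0 for the comparison. The strand setting and the handling of reads with several positions are not given in the sources used here. The signal column of the authors' deposited comparison is the mean of size-factor normalised counts and served only to identify its libraries. Its fold changes and P values were not used. Fragments were not distinguished by molecular identifiers.

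Genes were named through GENCODE M21 on GRCm38 (99.4% of identifiers). Counts were scaled with TMM and tested with edgeR 4.0.16 (filterByExpr, quasi-likelihood test, 2-sided, R 4.3.3) across all genes, with Benjamini-Hochberg adjustment. DESeq2 1.42.0 was an alternative. The steps were tested on simulated data. Members, lists and tests were chosen with earlier results of these data known. Named genes are Gas5, the 12 members with most reads, the leaders of each class and cluster, members past the criteria (unadjusted P under 0.05 and over 2-fold), the 5 with the highest ratio in siRNA596 replicate 2, and Slbp, Npat, H2afx, H2afz and H3f3b. Others were named after their values were seen. Libraries were distinct, with a chi-square per degree of freedom of 4.95 or more between any pair. By this measure NC replicate 1 was closer to siRNA596 replicate 1 (4.95) and siRNA210 (7.80) than to NC replicate 2 (28.7). NC replicate 2 was at 25.8 from siRNA596 replicate 1 and 34.7 from siRNA210. The comparison with 4 libraries thus holds 1 NC library near the KD libraries and 1 apart from them. Replicate numbers of siRNA596 and NC did not deviate together (r = 0.0948) and pair no samples.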

Additional observations from a re-analysis of the deposited data

Results flagged for a closer look

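For 2 of the named genes, the siRNA210 library lay below both NC libraries while both siRNA596 libraries lay above them. Hist1h3c was at 0.559 CPM with siRNA210, 0.881 and 0.730 with NC, and 1.01 and 3.75 with siRNA596. Hist1h4k was at 0.671 CPM with siRNA210, 0.768 and 1.02 with NC, and 1.15 and 1.21 with siRNA596. The difference between the siRNAs was not tested, since siRNA210 has 1 library, and the counts behind the siRNA210 values are 20 and 24. The share of all genes with this order of libraries is not given here, so the 2 genes have no background. In siRNA596 replicate 2, 24 of the 31 members with a mean count of at least 10 were past 2-fold higher in any case.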

How the results depend on the processing

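With 4 libraries, 3 or 4 members were called under DESeq2, its size factors, no filter or a minimum of 10 counts in every library, and 1 to 3 with a library left out (without NC replicate 2 Hist1h2ao was also called, lower). Their median log2 fold change was 0.022 with no filter and 0.092 to 0.49 with a library left out. All genes called numbered 139, but 67 with DESeq2, 282 with no filter, 73 with the minimum and 125 to 374 with a library left out. With all 5 libraries 3 to 5 members were called under the other tools and filters, and 0 to 3 with a library left out, with medians of 0.16 to 1.36. All genes called numbered 57, but 167 with no filter, 37 with the minimum and 33 to 139 with a library left out.

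For siRNA596 alone against NC, 2 members were called without and 1 with the replicate number as a block, and the block moved all genes called from 41 to 426. The numbers share only a number. In siRNA596 replicate 2, 25 of the 31 members with a mean count of at least 10 were past 2-fold in either direction. Over all genes at that minimum, 16.8% were past 2-fold higher and 22.0% past 2-fold lower. It was 48 of 61 members with no minimum on counts and 3 of 3 with a mean count of at least 100. No share over all genes is given for these 2 settings. The 61 include the 8 members with at most 3 counts in every library, where a few reads can pass 2-fold. The summed ratio of 3.05 was 2.53 with library size alone and 2.98 to 3.13 with another library left out.

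Leaving out a library turned the sign of genes that were not called. With 4 libraries the log2 fold changes ran from -0.53 to 0.32 (Hist1h3c), -0.42 to 0.35 (Hist1h4k), -2.37 to 0.50 (Hist4h4), -0.088 to 0.19 (H2afx), -0.47 to 0.61 (Hist1h3g), -0.65 to 1.53 (Hist1h3i), -0.023 to 0.063 (H3f3b) and -0.076 to 1.03 (Hist1h4j). With all 5 they ran from -0.017 to 0.40 (Hist1h4k), -0.092 to 0.076 (Slbp), -0.042 to 1.56 (Hist1h3c), -0.036 to 1.11 (Hist1h3g), -0.35 to 0.49 (Hist2h2be), -0.43 to 2.40 (Hist4h4), -0.41 to 0.56 (Gas5) and -0.34 to 0.43 (Ccne1). The causes were not tested. Members with under 10 counts give no usable fold change at this depth, and intervals from 2 libraries a group stay wide.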
